A study of Homo sapiens with 4 samples.

Results

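PCED1B-AS1 is a long noncoding RNA (lncRNA) transcribed antisense to PCED1B, the gene of a predicted PC-esterase domain protein. It was described here through all 21 isoform rows that carried its name, of 104786 rows in the table, and through their sum, 1 of 46902 lncRNA genes. The gene was chosen by its summed level, which differed widely between the cell lines compared, so its levels are given as a description, with no test. RNA was sequenced as 2 libraries of MDA-MB-231, a cell line from a triple-negative breast carcinoma, and 2 of its subline MDA-MB-231-P3, called P3 here. P3 came from 3 rounds of tail vein injection into mice, recovery of the resulting lung tumour cells and regrowth in culture. The labels describe no such passage for the parental libraries. The labels did not say whether the subline was a clone, how many animals each round used, or whether libraries of 1 line were grown as separate cultures. For the lncRNAs around PCED1B-AS1, p-values therefore rest on library-to-library spread alone, and that spread may be technical.

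An antisense lncRNA is copied from the strand opposite to another gene, and such RNAs can act on their neighbour, on chromatin, or in the cytoplasm on microRNAs and proteins. PCED1B-AS1 is known from lymphocytes, and work on liver cancer and glioma has described it as promoting tumour growth, with links to microRNA binding and to the hypoxia factor HIF-1α. These points are background and were not measured in these libraries.

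PCED1B-AS1 lies on the minus strand at chr12:47599676-47610270 (hg19), inside PCED1B, which is on the plus strand at chr12:47473386-47630445. GENCODE lists 64 transcripts for PCED1B-AS1, of 332 to 2494 bases and with 1 to 6 exons. The 5′ ends of 62 of the 64 lay within 263 bases of each other, and the other 2 began further inside the gene. The PCED1B transcripts PCED1B-203 and PCED1B-204 start in the opposite direction at 47610370 and 47610381, the first of them 99 bases from the outermost PCED1B-AS1 start. Annotated transcripts thus leave this region in both directions. The promoter window is shown because nearly all isoforms of a gene that differs this much between the lines are annotated to start in or beside it, and it is printed as RefSeq gives it (GRCh38.p14, minus strand, chr12:47216394-47216693, mostly upstream of the RefSeq start). The same letters occur once on hg19 chromosome 12, at chr12:47610177-47610476. Capitals mark the 1 match to the ETS core CCGGAA, which reads TTCCGG on this strand and begins 54 bases before the RefSeq start.

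PCED1B-AS1 promoter: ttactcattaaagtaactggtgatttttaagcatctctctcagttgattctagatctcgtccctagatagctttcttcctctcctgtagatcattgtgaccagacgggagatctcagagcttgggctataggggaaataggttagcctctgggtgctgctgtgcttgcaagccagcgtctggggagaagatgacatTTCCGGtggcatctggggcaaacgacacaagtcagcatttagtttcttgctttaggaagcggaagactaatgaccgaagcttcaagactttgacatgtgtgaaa

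Both strands of this window were searched for 7 motifs, and a match describes letters only. CCGGAA is held by 17.2% of the 35116 RefSeq promoter windows of the same length. TATAAA (11.5% of windows), the AP-1 core TGANTCA (7.71%), the E-box CACGTG (7.26%), CCAAT (34.6%), the hypoxia core ACGTG (21.4%, contained in CACGTG) and the NF-κB motif (11.3%) had no match in these letters. The window held 7 CpG dinucleotides and 46% G or C, against medians of 14 and 58.7% over all windows. The RefSeq promoter window of PCED1B held 23 CpG dinucleotides, and which PCED1B start it belongs to was not determined.

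In all, 5512 bases were exonic in some PCED1B-AS1 transcript and 784 of them in at least 50% of the transcripts, so reads from much of a transcript can belong to several isoforms. Another 3000 bases were exonic in 1 transcript only. The isoform numbers of the table come from an annotation not used here, so no numbered isoform was tied to a GENCODE transcript.

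In 266 bases, 4.83% of these exonic bases, exons of PCED1B lie on the opposite strand. The libraries marked strand, but whether the counting used it is not given in the sources used here, so reads of PCED1B over those bases cannot be told apart from reads of PCED1B-AS1. PCED1B itself is protein-coding and had no row.

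Values are FPKM, fragments scaled by transcript length and by the mapped reads of the library. Summed over its isoforms, PCED1B-AS1 stood at 0.363 and 0.517 FPKM in replicates 1 and 2 of the parental line, and at 56.4 and 65.0 FPKM in replicates 1 and 2 of P3. The lines did not overlap, as for 50.3% of the lncRNA genes tested, and the lower P3 library was 109-fold above the higher parental one. The means were 0.440 ± 0.109 and 60.7 ± 6.10 FPKM (SD, n = 2 each). In bulk RNA, more cells with the transcript and more transcript per cell cannot be told apart. Libraries of one line were close: the higher subline library was 1.15 times the lower, and the higher parental library 1.42 times the lower. Of 620 tested lncRNA genes with a mean of at least 10 FPKM in P3, 63.7% had a larger ratio between the subline libraries than PCED1B-AS1, and the median was 1.24.

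The place of PCED1B-AS1 among the tested genes thus differed between the lines. Among the 6444 lncRNA genes with a mean of at least 0.5 FPKM over the 4 libraries, its rank was 5701 in parental cells and 143 in P3. PCED1B-AS1 reached that minimum through P3 alone, so a low parental rank within this set follows in part from the filter. Its difference in log2(FPKM + 0.5), where the added 0.5 shrinks changes of low values, was 6.02, where the median of all tested genes was 0.09. Over tested genes limma called 0.0621% in either direction and 0.031% as higher in P3, and both subline libraries lay above both parental ones for 28.9%. These shares describe the table and are no test of PCED1B-AS1. The libraries held 50931 to 57477 isoform rows above 0, and their FPKM summed to 460282 and 500086 in parental cells and to 351135 and 372689 in P3, so the lncRNA total was lower in the line where PCED1B-AS1 was higher.

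Nearly the whole subline level came from 6 isoforms, each of at least 2 FPKM in both subline libraries. The most abundant, PCED1B-AS1:18, reached 18.4 and 13.0 FPKM in P3, and had near 0 and 0.215 FPKM in parental cells. PCED1B-AS1:12 had 12.4 and 13.3 FPKM in P3 and was near 0 in both parental libraries. PCED1B-AS1:5 had 11.0 and 14.2 FPKM in P3, and was listed at 0 and near 0 in parental cells. These 3 were the only isoforms at 10 FPKM or more in any library.

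A second tier followed. PCED1B-AS1:14 reached 2.81 and 7.85 FPKM in P3 and was listed at 0 in both parental libraries. PCED1B-AS1:24 had 4.31 and 5.07 FPKM, and PCED1B-AS1:1 had 3.86 and 3.79 FPKM, both with parental values near 0. Of these 6, PCED1B-AS1:1 repeated most closely between the subline libraries, at a ratio of 1.02, and PCED1B-AS1:14 least, at 2.80. Their median ratio was 1.23, against 1.38 for the 2806 tested isoform rows with a subline mean of at least 2 FPKM. Replicate 2 was the higher for 4 of the 6 and replicate 1 for the other 2, PCED1B-AS1:18 and PCED1B-AS1:1.

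**Figure D1:**
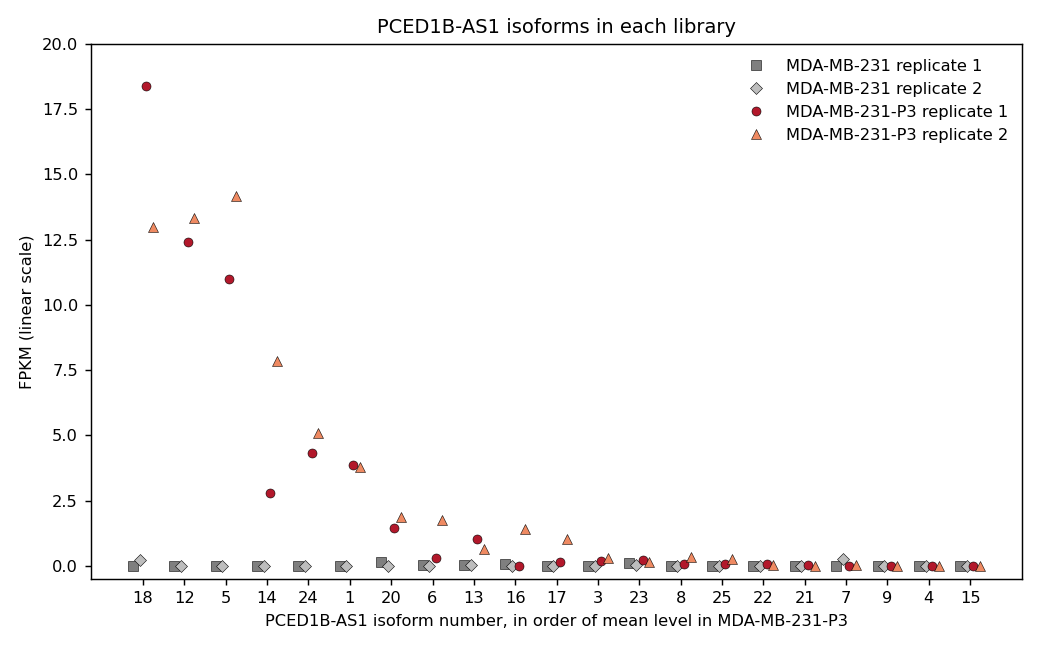
Points give the FPKM (linear axis) of each of the 21 PCED1B-AS1 isoforms in each of the 4 libraries, with isoforms ordered by their mean in MDA-MB-231-P3. The parental points all lie at or below 0.257 FPKM, while 6 isoforms stand between 2.81 and 18.4 FPKM in both subline libraries.

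The remaining 15 isoforms were low. PCED1B-AS1:20 had 1.43 and 1.88 FPKM in P3 and 0.132 FPKM and near 0 in parental cells. PCED1B-AS1:13 had 1.03 and 0.655 FPKM in P3 against 0.0207 and 0.0285 FPKM in parental cells. PCED1B-AS1:6 had 0.0191 FPKM and near 0 in parental cells, and 0.288 and 1.75 FPKM in P3. In each of these the subline libraries lay above both parental ones, although PCED1B-AS1:6 differed 6.07-fold between them. PCED1B-AS1:16 and PCED1B-AS1:17 reached 1.42 and 1.02 FPKM in replicate 2 of the subline, and were near 0 and at 0.161 FPKM in replicate 1.

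PCED1B-AS1:23 was the weakest contrast among the isoforms seen in all 4 libraries, with 0.108 and 0.0157 FPKM in parental cells and 0.235 and 0.145 FPKM in P3. PCED1B-AS1:7 had 0.257 FPKM in parental replicate 2, the highest parental value of any isoform, but was near 0 in parental replicate 1. It had 0.0260 FPKM at most in P3, and the lines overlapped. The isoforms numbered 3, 8, 25, 22 and 21 stayed at or below 0.323 FPKM in every library, and those numbered 4, 9 and 15 below 0.01 FPKM.

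In all, both subline libraries lay above both parental ones for 16 of the 21 isoforms, below for 0, and overlapped for 5, which were numbered 4, 7, 9, 15 and 16. These 16 take in isoforms such as PCED1B-AS1:22, with 0.0788 FPKM at most, and of all isoforms tested 48% did not overlap in one direction or the other. A mean of at least 0.5 FPKM was reached by 8 isoforms, all with the subline above the parent, where 27.3% of the 8432 isoforms tested showed that order. These 8 reached the minimum through the subline alone, so they had to differ and nothing is read from their order. Limma called 0% of the 8432 isoforms.

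Isoform shares in P3 were spread rather than held by 1 form. PCED1B-AS1:18 made up 32.7% and 20% of the sum in P3 libraries, PCED1B-AS1:12 22.0% and 20.5%, and PCED1B-AS1:5 19.5% and 21.8%. These 3 together held 74.2% and 62.3%, and the 6 main isoforms 93.7% and 88.0%. The leading isoform was PCED1B-AS1:18 in replicate 1 and PCED1B-AS1:5 in replicate 2, so the order within the first 3 differed between the libraries. By ratio, the share of PCED1B-AS1:14 differed most among the 6, at 4.98% and 12.1%.

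The evenness of the shares can be given as an effective number of isoforms, which is the number of equally abundant isoforms that would give the same sum of squared shares. It was 4.82 and 6.41 for PCED1B-AS1 in P3. For the 141 tested lncRNAs with at least 10 rows and a subline mean of at least 10 FPKM, the medians were 3.99 and 3.81, and 58.9% and 79.4% of them had fewer than PCED1B-AS1. The leading isoform of these lncRNAs held a median of 38.1% and 39.9%. It was the same isoform in both subline libraries for 88 of the 141, or 62.4%, and PCED1B-AS1 was not among those.

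**Figure D2:**
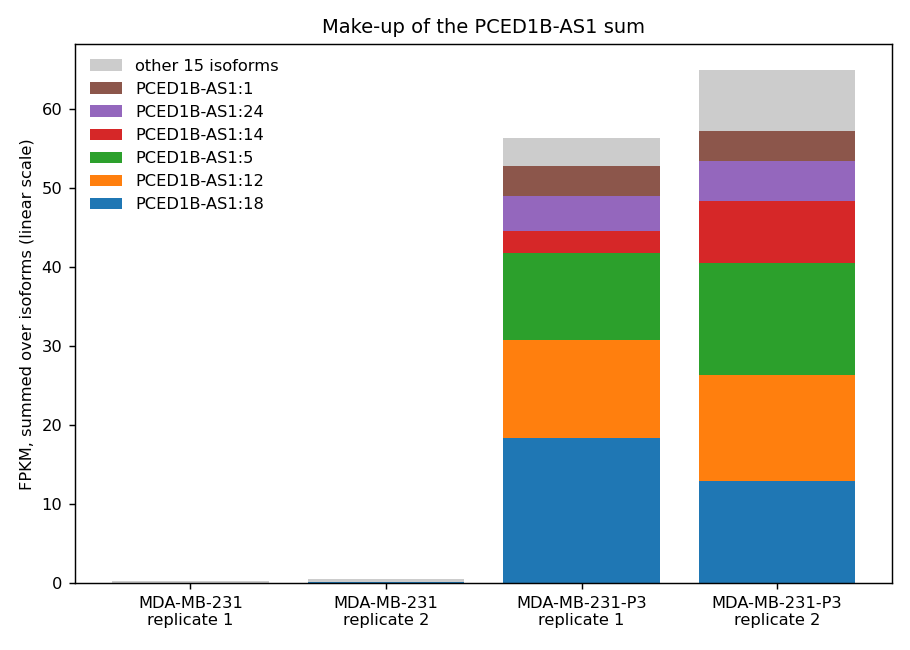
Stacked bars give the summed FPKM of PCED1B-AS1 in each library (linear axis from 0), divided into its 6 main isoforms and the other 15. The parental bars, 0.363 and 0.517 FPKM, are hardly visible beside 56.4 and 65.0 FPKM, and the blue segment of PCED1B-AS1:18 is larger in subline replicate 1 than in replicate 2.

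The small parental signal differed between the libraries in its main isoforms. In parental replicate 1 it came mostly from PCED1B-AS1:20 (36.4% of the sum), PCED1B-AS1:23 (29.7%) and PCED1B-AS1:16 (23.0%). In parental replicate 2 it came mostly from PCED1B-AS1:7 (49.6%) and PCED1B-AS1:18 (41.6%). PCED1B-AS1:13 held a like share in both, 5.70% and 5.52%. An isoform value of at least 0.01 FPKM occurred for 5 isoforms in replicate 1 and 4 in replicate 2, and only PCED1B-AS1:13 and PCED1B-AS1:23 reached it in both. The 3 isoforms that led in P3 were thus near 0 in parental replicate 1, and 1 of them was above that level in replicate 2.

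Parental values near 0 also repeated between isoforms. Within 10% in both parental libraries, the isoforms numbered 3, 4 and 21 shared one pair of values, those numbered 5 and 17 another, and those numbered 8 and 25 a further pair, 7 isoforms in 3 sets. In the subline, isoforms of such a set could differ widely: PCED1B-AS1:5 had 11.0 and 14.2 FPKM where PCED1B-AS1:17 had 0.161 and 1.02 FPKM. The parental shares are therefore given as values only, and no isoform switch between the lines is read from them.

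The neighbourhood was then examined for lncRNAs that moved with PCED1B-AS1. Limma called 0 of the 18 tested lncRNAs around it, and since it called only 0.0621% of all tested genes, nothing about the neighbourhood is read from that. The most abundant of them, lnc-PCED1B-5, was lower in both P3 libraries. The table held 11 lncRNAs named lnc-PCED1B-number, with 56 rows. A name of this form gives a neighbouring gene, and their positions are not in the table. Of these 11, lnc-PCED1B-5 and lnc-PCED1B-1 had a mean of at least 0.5 FPKM.

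The lncRNA lnc-PCED1B-5 had 21.4 and 27.2 FPKM in parental cells and 18.2 and 12.4 FPKM in P3. Both subline libraries lay below both parental ones, as for 21.4% of tested genes, and the difference did not pass the test (log2 difference -0.66, SE 0.32, 95% interval -1.52 to 0.20, limma adjusted p = 0.41). Its difference was -0.93 without P3 replicate 1 and -0.40 without P3 replicate 2. In the parent, where lnc-PCED1B-5 was the main lncRNA with the PCED1B name, the summed PCED1B-AS1 stood at 0.0170 and 0.0190 times its level. In the subline the ratio was 3.10 and 5.22, so the order of these lncRNAs by FPKM was opposite in the lines.

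The level of lnc-PCED1B-5 was spread over more isoforms than that of PCED1B-AS1 in P3. It had 40 rows, and its effective number of isoforms was 13.8 and 7.66 in parental cells and 8.19 and 10.7 in P3. The leading isoform held 13.3% to 25.3% of the sum and was lnc-PCED1B-5:34 in parental replicate 1 and subline replicate 2, lnc-PCED1B-5:6 in parental replicate 2 and lnc-PCED1B-5:18 in subline replicate 1. Of 13 tested isoforms, limma called 0. Both P3 libraries lay below both parental ones for 3, against 20.7% of all isoforms tested, and above for 1, against 27.3%, so the share below was near that of the table. Among the 3, lnc-PCED1B-5:24 had 1.70 and 0.928 FPKM in parental cells and near 0 in P3, and lnc-PCED1B-5:5 had 1.99 and 2.04 FPKM in parental cells and 0.213 and 0.829 FPKM in P3 (limma adjusted p = 0.328 and 0.344). Of these, lnc-PCED1B-5:24 reached the minimum for testing through parental cells alone, so nothing is read from its direction.

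The lncRNA lnc-PCED1B-1 had 0.887 and 1.06 FPKM in parental cells and 0.624 and 0.202 FPKM in P3 (log2 difference -0.73, SE 0.40, 95% interval -1.80 to 0.34, limma adjusted p = 0.45), and its difference was -1.07 without P3 replicate 1 and -0.39 without P3 replicate 2. The P3 mean of lnc-PCED1B-1, 0.413 FPKM, was under the minimum for testing, so nothing is read from its direction. The other 9 were low in every library. The highest single value among them was 0.582 FPKM, for lnc-PCED1B-2 in parental replicate 1, followed by 0.434 FPKM for lnc-PCED1B-12 in parental replicate 2. Those numbered 6, 7, 8, 11 and 13 stayed at or below 0.320 FPKM, lnc-PCED1B-10 was near 0 and lnc-PCED1B-9 was listed at 0 throughout. Summed over all lnc-PCED1B lncRNAs other than lnc-PCED1B-5, the libraries had 1.80 and 2.07 FPKM in parental cells and 1.04 and 1.20 FPKM in P3.

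A wider list took lncRNAs named for genes from ARID2 to SENP1 on chromosome 12, among them those named for PCED1B, and a few lncRNAs there with symbols of their own. The farthest of the latter was LINC00938, 1478033 bases from PCED1B-AS1 (hg19). Of its 60 lncRNAs, 18 were tested, and limma called 0 of them. An unadjusted p under 0.05 was reached by 2, against 15.2% of all tested genes. The median log2 difference was -0.12, where that of all tested genes was 0.09, with 7 positive and 11 negative. One library decided the sign of this median, which was 0.17 without parental replicate 2 and -0.31 without parental replicate 1. Both P3 libraries lay above both parental ones for 5 of the 18, against 28.9% of all tested genes, and below for 5, against 21.4%. Of these, lnc-ARID2-2, lnc-ARID2-8 and lnc-PCED1B-1 had a mean under the minimum for testing in the lower line, so nothing is read from their order.

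The 2 lncRNAs with an unadjusted p under 0.05 were named for ARID2, a chromatin-remodelling gene 1297853 bases away. The lncRNA lnc-ARID2-2 had 0.566 and 0 FPKM in parental cells and 3.13 and 1.1 FPKM in P3 (log2 difference 1.72, SE 0.62, limma adjusted p = 0.317). That difference ran from 1.13 without P3 replicate 1 to 2.32 without P3 replicate 2, and was 2.93 with a pseudocount of 0.1. The parental mean of lnc-ARID2-2, 0.283 FPKM, was under the minimum for testing, so nothing is read from its direction. The lncRNA lnc-ARID2-12 had 1.91 and 2.0 FPKM in parental cells and 3.95 and 3.17 FPKM in P3 (log2 difference 0.72, SE 0.27, limma adjusted p = 0.328).

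LINC00938 was the most abundant lncRNA of the list after lnc-PCED1B-5, at 8.57 and 6.33 FPKM in parental cells and 6.15 and 8.33 FPKM in P3, where the lines overlapped (limma adjusted p = 0.958). Named for the adhesion molecule gene next to PCED1B, lnc-AMIGO2-4 had 0.809 and 0.201 FPKM in parental cells and 2.36 and 1.14 FPKM in P3 (log2 difference 1.18, SE 0.49, limma adjusted p = 0.353). None of the other 9 lncRNAs named by their abundance passed the test either. The lncRNA lnc-ENDOU-7 had 5.59 and 3.72 FPKM in parental cells and 4.08 and 1.63 FPKM in P3, and lnc-COL2A1-3 had 0.749 and 1.53 FPKM against 1.52 and 0.528 FPKM, so that the lines overlapped in both. They also overlapped for lnc-TMEM106C-7 (0.555 and 1.81 against 0.823 and 0.536 FPKM) and lnc-SLC48A1-8 (0.515 and 1.20 against 0.782 and 0.691 FPKM). Both P3 libraries lay below the parental ones for lnc-SLC38A2-1 (2.08 and 2.19 against 1.75 and 1.35 FPKM), lnc-VDR-2 (2.31 and 2.07 against 1.11 and 1.88 FPKM) and lnc-SLC48A1-1 (2.10 and 1.16 against 0.883 and 1.09 FPKM). They lay above for lnc-ARID2-1 (3.32 and 2.21 against 3.92 and 3.77 FPKM) and lnc-ARID2-8 (0.386 and 0.453 against 0.563 and 1.46 FPKM). The parental mean of lnc-ARID2-8, 0.420 FPKM, was under the minimum for testing, so nothing is read from its direction. Limma adjusted p-values of these 9 ran from 0.528 to 0.923. The differences of the 18 ran from -0.73 to 1.72. That of PCED1B-AS1 was 6.02, a value that is part of how it was chosen.

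**Figure D3:**
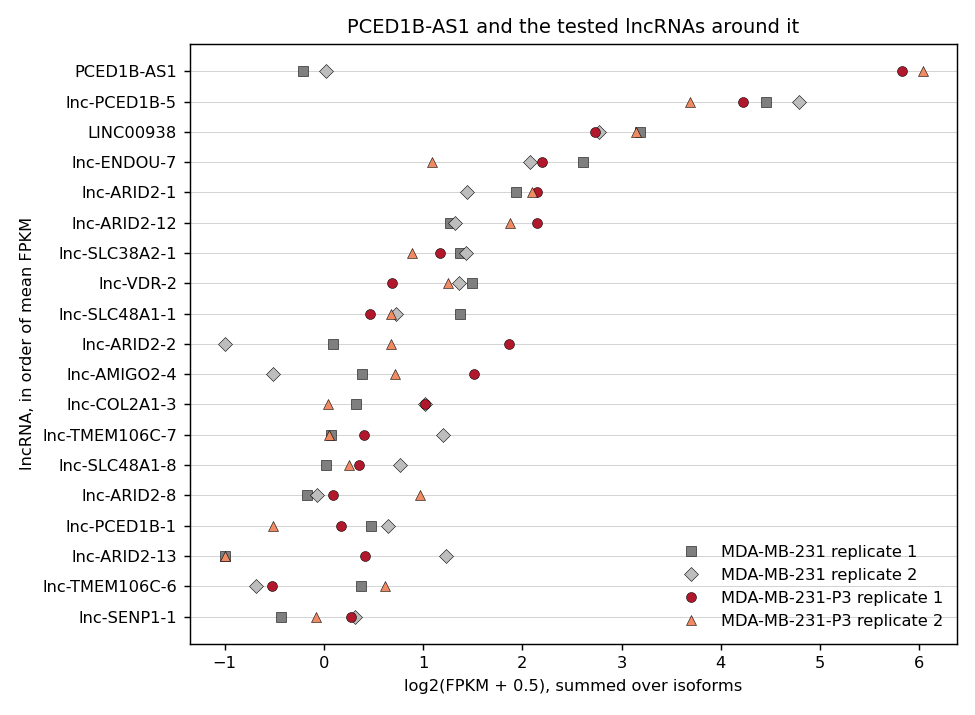
Points give log2(FPKM + 0.5) in each of the 4 libraries for PCED1B-AS1 and the 18 tested lncRNAs around it, ordered by mean FPKM. PCED1B-AS1 has the widest gap between the lines, and lnc-PCED1B-5 in the next line lies lower in P3.

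Markers of cells that could carry PCED1B-AS1 were compared between the lines. Of 17 listed lncRNAs known from leukocytes, 12 were below 0.5 FPKM in all libraries, 3 of them at 0 throughout, and their sum was 12.1 and 12.1 FPKM in parental cells and 10.2 and 11.0 FPKM in P3. MIR155HG, the host of miR-155 that marks activated lymphocytes, had means of 0.0381 FPKM (parental) and 0.0512 FPKM (P3), and LINC00861, a T-cell lncRNA, was near 0 in all 4 libraries. The sum was mostly LINC01943 (5.52 ± 0.0870 and 3.71 ± 1.23 FPKM, SD, n = 2 each) and CHRM3-AS2 (3.35 ± 1.57 and 3.28 ± 0.548 FPKM, SD, n = 2 each). Also tested were LINC00926, with 0.324 and 1.07 FPKM in parental cells and 1.05 and 0.859 FPKM in P3, and PRKCQ-AS1, with 1.19 and 2.58 FPKM against 2.04 and 1.80 FPKM. Of these 4, limma called 0, against 0.0621% of all tested genes, with 3 positive differences, 1 negative and a median of 0.06. Both P3 libraries lay above both parental ones for LINC00402 and LINC00996, which were too low to be tested and stayed at or below 0.264 FPKM. That order was shown by 28.9% of tested genes. For LINC01943 both P3 libraries lay below, as for 21.4% of tested genes. The part of leukocyte RNA in the level of PCED1B-AS1 was not tested.

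The labelled cell type could be checked through lncRNAs only. The 4 lncRNAs of luminal breast cells, among them DSCAM-AS1 and GATA3-AS1, summed to 0.342 to 0.550 FPKM in every library. The 6 listed lncRNAs of basal or mesenchymal-like carcinoma cells summed to 951 and 728 FPKM in parental cells and to 522 and 535 FPKM in P3, lower in both P3 libraries. Most of this was CYTOR (log2 difference -0.90) and MIR4435-2HG (-0.51), which share near-identical sequence and are uncertain (limma adjusted p = 0.313 and 0.439). The 6 were mixed, with 3 positive and 3 negative differences. MIR100HG had 23.6 and 22.8 FPKM in parental cells and 44.2 and 41.2 FPKM in P3 (log2 difference 0.87, limma adjusted p = 0.282). MIR222HG had 13.9 and 11.4 FPKM in parental cells and 17.7 and 18.8 FPKM in P3 (log2 difference 0.52, limma adjusted p = 0.423). Limma called 0 of the 6, against 0.0621% of all tested genes. An unadjusted p under 0.05 was reached by 2, CYTOR and MIR100HG, against 15.2% of all tested genes. The median difference over these opposite directions was -0.04. The 5 lncRNAs known from lung summed to 5.59 and 5.05 FPKM in parental cells and to 7.74 and 7.54 FPKM in P3, higher in both P3 libraries. Of them 1 was tested and 0 called, against 0.0621% of all tested genes. The tested one, LINC00261, had 4.91 ± 0.320 FPKM in parental cells and 7.03 ± 0.0298 FPKM in P3 (SD, n = 2 each, limma adjusted p = 0.429). NKX2-1-AS1, beside the gene of a lung and thyroid transcription factor, had 0.446 and 0.357 FPKM in parental cells and 0.577 and 0.505 FPKM in P3. FENDRR, LINC00968 and TBX5-AS1, known from lung mesenchyme or lung tissue, were near or at 0 in parental cells and at 0.0899 FPKM at most in P3. The part of lung RNA in the level of PCED1B-AS1 was not tested.

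Hypoxia-linked lncRNAs were listed because PCED1B-AS1 has been linked to HIF-1α elsewhere. Of 10 listed, 6 were tested and limma called 0, against 0.0621% of all tested genes. There were 3 positive and 3 negative differences, with a median of -0.0033. The negative ones were those of H19 (-0.44), HIF1A-AS2 (-0.32) and LUCAT1 (-0.25). The P3 mean of H19, 0.373 FPKM, was under the minimum for testing, so nothing is read from its direction. An unadjusted p under 0.05 was reached by 2 of the 6, against 15.2% of all tested genes. They were MALAT1 (log2 difference 1.11) and GAPLINC, both higher in P3. GAPLINC had 0.0300 and 0.0201 FPKM in parental cells and 0.580 and 1.94 FPKM in P3 (log2 difference 1.63, limma adjusted p = 0.311). It reached the minimum for testing through P3 alone, so nothing is read from its direction. The most abundant were MALAT1, at 834 ± 166 and 1799 ± 258 FPKM (limma adjusted p = 0.282), and NEAT1, at 120 ± 28.9 and 143 ± 39.3 FPKM (limma adjusted p = 0.743; SD, n = 2 each), in parental cells and the subline.

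The lncRNAs whose levels over the 4 libraries were most like those of PCED1B-AS1 were found by the Euclidean distance of log2(FPKM + 0.5), as a description. Of the 6 taken, 5 are described. The lncRNA lnc-MASP1-2, at a distance of 2.52, had 0.263 FPKM and near 0 in parental cells and 38.0 and 13.6 FPKM in P3. After it came lnc-SLC35E3-8 at 2.79, lnc-ELP2-1 at 3.21, lnc-GATD1-2 at 3.25 and lnc-CHD9-13 at 3.36. Their subline libraries differed more in some cases than in others: lnc-ELP2-1 had 86.2 and 8.34 FPKM, and lnc-CHD9-13 had 34.4 FPKM in both.

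Among isoforms of other genes, lnc-DEFB116-8:1 (distance 0.88), lnc-BEND3-2:1 (0.94) and lnc-METTL14-3:17 (1.1) were nearest to PCED1B-AS1:18. They had 11.1 and 8.84, 20 and 7.39, and 11.0 and 20.4 FPKM in P3, and 0.204 FPKM at most in parental cells. None of the nearest genes or isoforms is named for a gene of the chromosome 12 list.

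**Figure D4:**
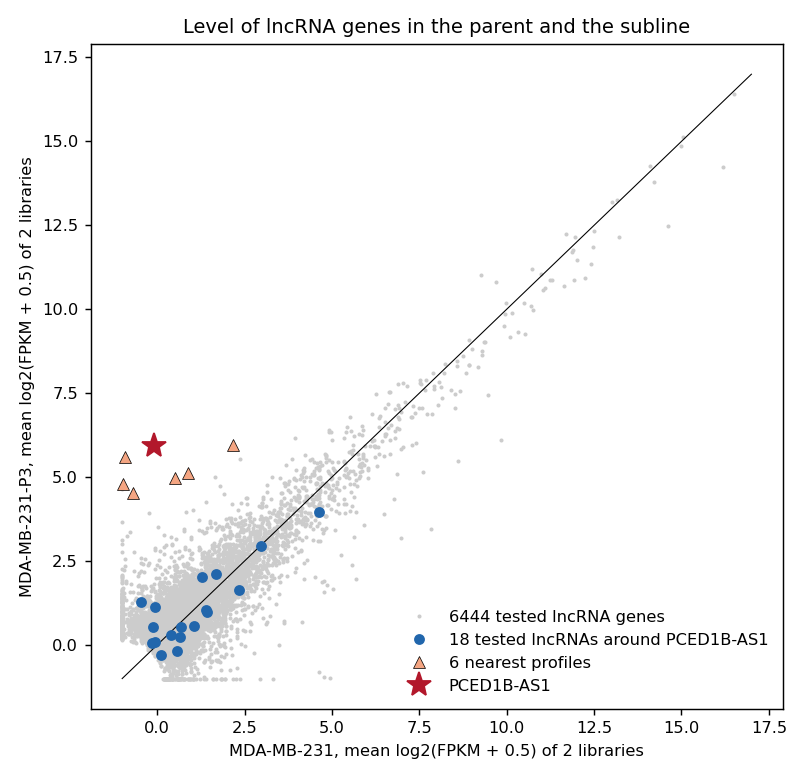
Each point is a lncRNA gene at its mean log2(FPKM + 0.5) over 2 parental (x) and 2 subline (y) libraries, with the line of equal levels, for 6444 tested genes. PCED1B-AS1 and its 6 nearest profiles stand far above the line, and the 18 tested lncRNAs around PCED1B-AS1 lie among the bulk of genes.

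PCED1B-AS1 was 1 of 10 lncRNA genes with a mean under 0.5 FPKM in parental cells and of at least 10 FPKM in P3, limits chosen after the values were seen. Within these 10 it had the highest value in its lower subline library, 56.4 FPKM. The most abundant by mean, lnc-ARSG-2, had 363 FPKM in one subline library and 1.24 FPKM in the other. Among the 368 tested lncRNAs with an antisense name ending in -AS and a number, PCED1B-AS1 had the largest positive difference, and BBOX1-AS1 followed at 3.07. The median of these antisense lncRNAs was -0.07.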

How the data were processed

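The mRNA fraction was sequenced as paired-end, strand-marked libraries, and reads were aligned to hg19 with HISAT2 and normalized to FPKM, per the labels' protocols. StringTie is also named, per the submitters' processing notes. The authors deposited 1 FPKM value for each lncRNA isoform and library. No source used here gives tool versions, the lncRNA annotation or the use of strand in counting. The per-sample files equalled the series table in all 104786 rows, so 1 set of values was used. Read depth is unknown. A value at or near 0 can be a failed estimate.

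Rows were summed by the name before the final colon and number. Genes, and separately isoforms, with a mean of at least 0.5 FPKM over the 4 libraries were tested with limma 3.58.1 (R 4.3.3) after taking log2(FPKM + 0.5), as P3 minus parental, with a variance trend, two-sided tests and no block, with Benjamini-Hochberg adjustment over all features tested and a threshold of 0.05. The fit was tested on simulated data. The gene, its context rows and the lists were chosen with earlier results of these data known. PCED1B-AS1 was therefore fitted with all other genes, but no test result is given or read for it. Named were all its isoforms, the lnc-PCED1B lncRNAs, the 15 most abundant tested lncRNAs of the chromosome 12 list, the 6 genes and 3 isoforms of nearest profile, and the 2 most abundant tested members of other lists. One of these genes is not reported here. Other list members, lnc-PCED1B-5 isoforms and the antisense and parent-low sets were named after their values were seen. Coordinates follow the GENCODE 44 annotation in its GRCh37 (hg19) version. Python 3.11.15, numpy 2.4.6, pandas 2.3.3 and matplotlib 3.10.9 were used.

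Alternatives were other pseudocounts (0.1, 1) and filters (none, 1 FPKM), quantile normalization, centring, no trend, the replicate number as a block, the highest isoform, library scalings and leaving out each library.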

Additional observations from a re-analysis of the deposited data

How the results depend on the processing

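The log2 difference of PCED1B-AS1, 6.02 as given, stayed positive in every setting. It was 6.33 as a share of the library's summed FPKM, 6.82 and 5.42 with pseudocounts of 0.1 and 1, and 4.74 for the highest isoform alone, and it was 5.91 to 6.14 without single libraries. In place of 4, limma called 2 genes after quantile normalization and 0 with each of: no filter, a pseudocount of 1, no trend, and the highest isoform in place of the sum. They numbered 0 to 0 without single libraries, in fits that leave 1 library in a line and assume that it varies like the other line. With the replicate number as a block, 0 genes were called. Deviations of same-numbered libraries correlated at 0.08 over genes, and the labels tie the numbers to nothing shared. The count of 0 called isoforms became 6 with a minimum of 1 FPKM. For all of these changes the cause was not tested.

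Of the lncRNAs around PCED1B-AS1, 0 were called in any setting. Without single libraries, uncalled differences crossed 0 for LINC00938 (-0.24 to 0.17), lnc-COL2A1-3 (-0.63 to 0.35), lnc-TMEM106C-7 (-0.98 to 0.15), lnc-SLC48A1-8 (-0.46 to 0.28), NEAT1 (-0.035 to 0.53) and CHRM3-AS2 (-0.40 to 0.46). CHRM3-AS2 also had -0.067 with quantile normalization, -0.081 with centring and -1.0 for its highest isoform. Of the 6 nearest genes, 4 and 5 were also nearest with pseudocounts of 0.1 and 1, and of the 3 nearest isoforms 2 and 2. With 2 libraries a line and unknown depth, small differences could not be resolved.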
